A study of Mus musculus with 24 samples.

Results

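Transcription elongation factors were followed through the response to a Toll-like receptor 4 (TLR4) agonist in mouse macrophages and B cells. The genes were Ell and Ell2, which encode elongation factors of the ELL family, Cdk9, Ccnt1 and Ccnt2, which encode the kinase and the cyclins of P-TEFb, Hexim1, which encodes an inhibitor of P-TEFb, Brd2, which encodes a bromodomain protein, and Supt5h, which encodes the large subunit of DSIF. They were taken by symbol, without regard to their values: every array probe annotated with 1 of the 8 symbols was used. This gave 15 probes of 41174 on the array. Probe positions are those of the array's annotation on build mm8. All 15 passed the filter on dim probes, so that 8 of the 17398 gene symbols tested are described here. A gene with several probes was counted by its brightest probe, and the other probes are given beside it.

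Gene expression was profiled on 12 Agilent 2-colour mouse arrays. Each array held 2 biological replicates of 1 condition, replicate 1 in the Cy5 channel and replicate 2 in the Cy3 channel, which gave 24 channels. All cells came from C57BL/6 mice with no stated genetic change, and the age of the mice is not given in the sources used here. The agonist was Kdo2 lipid A (KLA), a defined lipopolysaccharide core that activates TLR4. Elicited peritoneal macrophages (EPM), recruited to the peritoneum by thioglycollate broth, were untreated, treated with KLA for 1 h, treated with the solvent DMSO for 12 h, or treated with KLA for 12 h. Bone marrow-derived macrophages (BMDM), grown from marrow in medium containing macrophage colony stimulating factor, received DMSO or KLA for 1 h or 12 h. Resting splenic B cells, negative for CD43 and freed of CD11b-bearing cells on a magnet, were untreated, treated with KLA for 1 h, or treated with DMSO or KLA for 12 h. The control for 1 h of KLA was thus an untreated sample in EPM and B cells, and a DMSO sample in BMDM.

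After initiation, RNA polymerase II often pauses a short way into a gene, held by the complexes DSIF and NELF. P-TEFb, made of CDK9 and a T-type cyclin, phosphorylates the polymerase, DSIF and NELF and so starts productive elongation. Most P-TEFb is kept inactive by the 7SK RNA with HEXIM1. ELL proteins raise the elongation rate and travel with P-TEFb in the super elongation complex, and BET proteins such as BRD2 bind acetylated histones. In macrophages, release of paused polymerase is a known control point of genes induced by TLR4.

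Ell2 and Ell encode close relatives and moved in opposite directions in macrophages, so the 250 bases before their annotated starts are shown, from RefSeq on build GRCm38.p6, in the direction of transcription. Capitals mark 3 motifs, searched on both strands: TGACG, the core of the cAMP response element (CRE), the GC box GGGCGG and the CCAAT box CCAAT. The sequence of Ell2 is chr13:75707234-75707483 on the plus strand and that of Ell is chr8:70539425-70539674 on the plus strand.
Ell2: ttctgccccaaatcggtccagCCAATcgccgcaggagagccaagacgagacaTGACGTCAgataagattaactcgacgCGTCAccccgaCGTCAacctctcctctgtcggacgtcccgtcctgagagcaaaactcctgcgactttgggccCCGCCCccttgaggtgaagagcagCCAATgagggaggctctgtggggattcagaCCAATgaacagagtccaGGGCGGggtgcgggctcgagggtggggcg
Ell: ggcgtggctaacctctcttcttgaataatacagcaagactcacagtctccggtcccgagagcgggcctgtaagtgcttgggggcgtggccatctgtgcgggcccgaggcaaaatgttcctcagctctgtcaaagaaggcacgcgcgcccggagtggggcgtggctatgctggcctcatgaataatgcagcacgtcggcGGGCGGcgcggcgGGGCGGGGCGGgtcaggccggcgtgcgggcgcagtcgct

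The window of Ell2 held 4 matches to TGACG. A pair of these overlap as the full palindrome TGACGTCA, which starts 198 bases before the annotated start. That palindrome was in 1.55% of 32851 promoter windows, and TGACG was in 17.8%. Ell2 also had 3 CCAAT boxes and 2 GC boxes. The window of Ell held 3 GC boxes and neither of the other motifs. RefSeq gave 10 windows for the 8 genes, 3 of them for Brd2. Of these, 8 held a GC box (32.7% of all windows) and 4 a CCAAT box (33.8%), and 4 held TGACG, those of Ell2, Ccnt1 and Supt5h and 1 of those of Brd2. Only that of Ell2 held TGACGTCA. None of the 10 held TATAAA (12.4% of all windows), the κB site (1.41%) or TGANTCA (6.75%), the AP-1 site. The search for TATAAA took these exact letters only, and did not count the TATATAAG in the window of Hexim1. A match is a description of these letters and not a measured binding site.

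The labelled cell types were borne out by their markers. All 7 B cell markers were well above background in every B cell channel, where their summed intensity was 207698 to 259472 against at most 4289 in macrophages, and all 7 macrophage markers were so in every EPM and BMDM channel, where they summed to at least 244022 against at most 2869 in B cells. Of the other lists, the 6 T cell markers summed to 1411 to 3432 and the 5 erythroid markers to 3662 to 13466 in B cells, against at most 815 and 595 in macrophages, and the 5 neutrophil markers summed to 1389 to 2347 in BMDM against at most 479 elsewhere. The part of such cells in the results was not tested. Between 57.4% and 65.0% of probes were well above background in each channel. The treatment was visible in macrophages: Tnf, which encodes an inflammatory cytokine, rose by 6.73 on the log2 scale in EPM and by 3.95 in BMDM at 1 h. In B cells, with the labels of the scanner files, Tnf, Il1b and Cxcl10 were not called at 1 h. At 12 h Tnf rose by 0.43 (adjusted p = 0.0013) and Cxcl10 by 1.52 (adjusted p = 5.3e-06), while Il1b was not called. The Cxcl10 control was not well above background. Each condition lay on 1 array and each cell type on 1 slide, so that neither array and condition nor cell type and slide can be told apart. In bulk RNA, fewer cells of a type and less RNA per cell cannot be told apart either.

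The labels of a pair of B cell arrays were in conflict. In the authors' table of normalized values, the 4 columns for B cells with 1 h of KLA and B cells with 12 h of DMSO each followed the scanner channels of the other condition, with correlations of at least 0.974 across probes after centring within the cell type, while the other 20 columns followed the channels of their own label. Which source has the right labels was not settled, so the B cell changes below are given with the scanner labels and again with these 2 arrays exchanged.

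Ell2, which encodes an ELL family elongation factor, rose after KLA in both macrophage types and at both times. Its brightest probe (A_51_P230507, chr13:76237533-76237592 on build mm8, plus strand) had normalized log2 intensities of 10.03 and 9.92 in untreated EPM and 11.18 and 11.04 after 1 h of KLA. After 12 h the values were 9.70 and 9.71 with DMSO and 12.10 and 11.90 with KLA. The replicates of control and treated EPM therefore did not overlap at either time, and the treated level was higher at 12 h than at 1 h.

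The change of Ell2 in EPM was 1.13 ± 0.11 (log2, SE, n = 2 against 2; 2.19-fold, adjusted p = 1.9e-07) at 1 h and 2.29 ± 0.11 (4.90-fold, adjusted p = 1.7e-12) at 12 h. In BMDM the control level was already high, at 11.83 and 11.80 with DMSO for 1 h, and it was 12.40 and 12.11 after KLA. At 12 h the BMDM values were 11.50 and 11.52 with DMSO and 12.81 and 12.77 with KLA. By this probe, BMDM controls thus sat above EPM treated for 1 h, and the replicates of control and KLA again did not overlap. The changes were 0.44 ± 0.11 (1.36-fold, adjusted p = 0.0048) and 1.28 ± 0.11 (2.42-fold, adjusted p = 6e-09). Without replicate 1 of BMDM treated for 1 h, the change at 1 h was 0.30 and did not pass the test (adjusted p = 0.10).

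The other Ell2 probe (A_52_P13305, chr13:76229947-76230006) gave the same direction in all 4 macrophage comparisons, with log2 changes of 1.64 and 1.89 in EPM and of 0.53 and 1.48 in BMDM at 1 h and 12 h. The probes differed over time in EPM. By the brightest probe the change grew by 1.16 ± 0.15 between 1 h and 12 h (adjusted p = 5.8e-06), while by the other probe the growth was 0.25 ± 0.16 and did not pass the test (adjusted p = 0.27). In BMDM both probes showed growth, by 0.83 and 0.96. The probes also differed in level: by the other probe the BMDM controls (means of 8.10 and 8.11) lay below EPM with KLA for 1 h (8.75).

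The Ell2 response was larger in EPM than in BMDM, but the probes differed in the time at which the difference was called. The difference between the changes was 0.69 ± 0.15 at 1 h (adjusted p = 0.0057) and 1.02 ± 0.15 at 12 h (adjusted p = 2.8e-05) by the brightest probe. By the other probe it was 1.12 ± 0.16 at 1 h (adjusted p = 0.00012) and 0.41 ± 0.16 at 12 h (adjusted p = 0.055). B cells lay at the low end of the Ell2 range, between 9.41 and 9.75 in all 8 channels, and the B cell changes were 0.04 with a 95% confidence interval of -0.19 to 0.27 at 1 h and 0.05 with an interval of -0.18 to 0.28 at 12 h. With the 2 arrays exchanged they were 0.00 and 0.01.

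Ell, the founding member of the ELL family, changed less and in the other direction. Its brightest probe (A_51_P292943, chr8:73521653-73521712, mm8, plus strand) read 11.91 and 12.08 in untreated EPM and 11.65 and 11.74 after 1 h of KLA. At 12 h it read 11.77 and 11.81 with DMSO and 11.15 and 11.20 with KLA. Control and treated replicates did not overlap at either time. The EPM change was -0.30 ± 0.07 at 1 h (adjusted p = 0.0020) and -0.62 ± 0.07 at 12 h (adjusted p = 2.4e-07).

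In BMDM, Ell read 11.78 and 11.84 with DMSO and 11.45 and 11.57 with KLA at 1 h, and 11.56 and 11.66 against 11.23 and 11.30 at 12 h. Again the KLA replicates lay below both controls. The BMDM changes were -0.30 ± 0.07 (adjusted p = 0.0023) and -0.35 ± 0.07 (adjusted p = 0.00015). The 12 h fall was larger in EPM than in BMDM, with a difference of -0.27 ± 0.09 (adjusted p = 0.028), and larger in EPM at 12 h than at 1 h, with -0.32 ± 0.09 (adjusted p = 0.011). By the dimmer probe these differences were -0.17 (adjusted p = 0.43) and -0.07 (adjusted p = 0.76). With the processed signals the change by the brightest probe was -0.20 both in EPM at 1 h and in BMDM at 12 h, and without normalization between arrays it was -0.53 in BMDM at 12 h. Without replicate 2 of untreated EPM, the change at 1 h in EPM was -0.22 (adjusted p = 0.053). The dimmer Ell probe (A_52_P133994) was lower in EPM at 12 h (-0.32, adjusted p = 0.024) and did not pass the test in EPM at 1 h (-0.24) or in BMDM (-0.11 and -0.15).

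**Figure D1:**
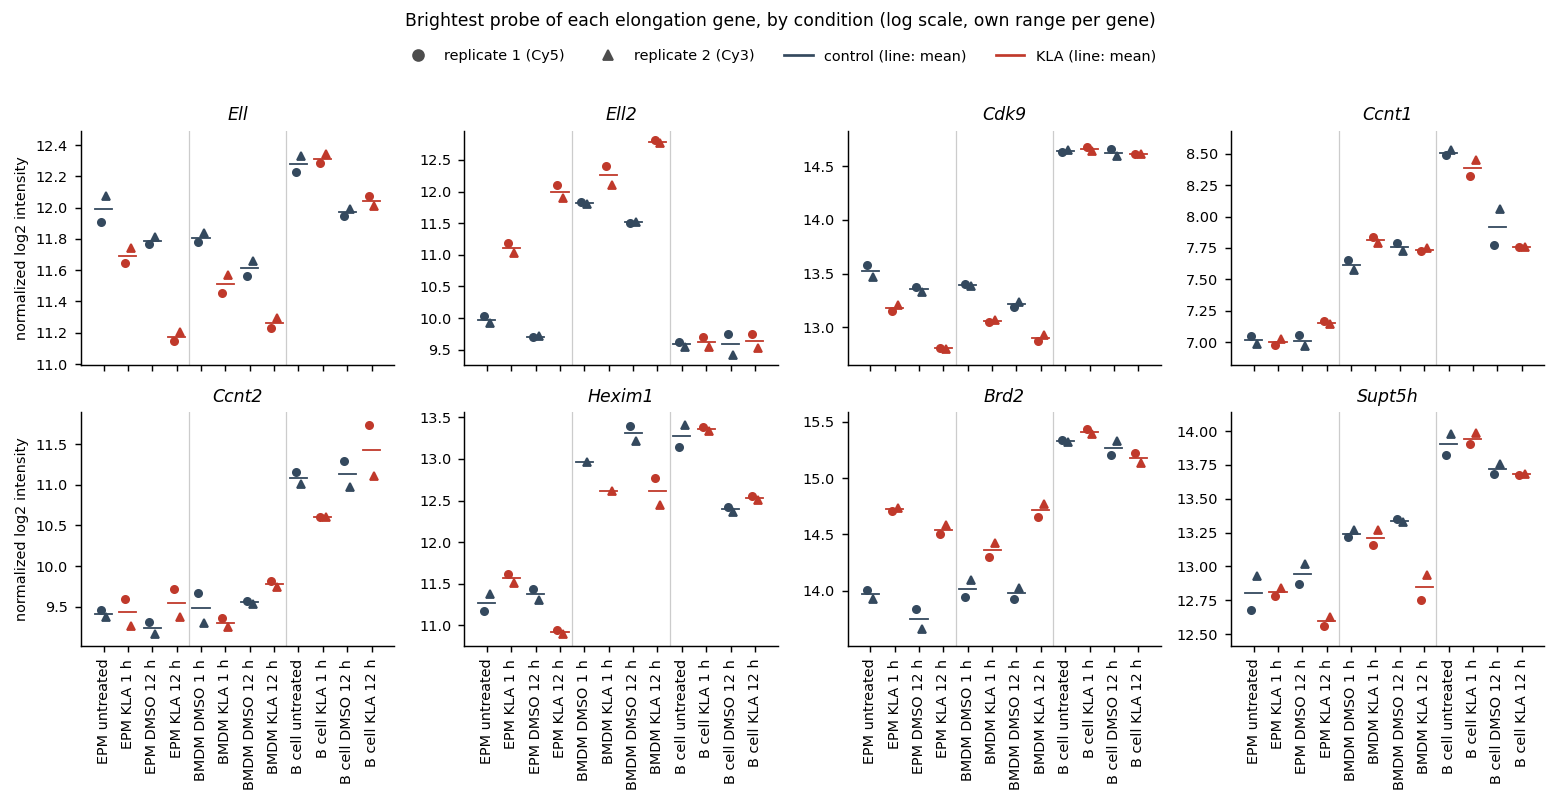
Normalized log2 intensity of the brightest probe of each of the 8 genes in the 12 conditions, with its own vertical range per gene. Circles are replicate 1 (Cy5), triangles replicate 2 (Cy3) and lines the means; dark blue is control and red is KLA. In the Ell2 panel the treated macrophages sit above their controls and the B cells stay between 9.41 and 9.75; in the Hexim1 panel BMDM at 1 h has only the Cy3 replicate.

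Cdk9, the kinase subunit of P-TEFb, was lower after KLA in macrophages. It has 1 probe (A_51_P190667, chr2:32529504-32529563, mm8, minus strand). EPM read 13.58 and 13.47 untreated and 13.15 and 13.21 after 1 h of KLA, and 13.38 and 13.33 with DMSO against 12.81 and 12.80 with KLA at 12 h. The replicates within a condition lay close together and the groups did not overlap. The EPM change was -0.35 ± 0.05 at 1 h (adjusted p = 3.9e-05) and -0.55 ± 0.05 at 12 h (adjusted p = 3.4e-08).

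In BMDM, Cdk9 read 13.40 and 13.39 with DMSO and 13.05 and 13.06 with KLA at 1 h, and 13.19 and 13.24 against 12.87 and 12.93 at 12 h. The groups did not overlap at either time. The changes were -0.34 ± 0.05 (adjusted p = 6.2e-05) and -0.31 ± 0.05 (adjusted p = 2.8e-05), but that at 12 h turned to 0.064 (adjusted p = 0.44) with the scanner's processed signals and was -0.02 (adjusted p = 0.83) with the authors' values. With the processed signals the changes at 1 h were -0.17 in both macrophage types and did not pass the test (adjusted p = 0.095 in EPM and 0.091 in BMDM). The EPM change at 12 h passed the test but was smaller, at -0.31 with the processed signals, -0.33 with the authors' values and -0.26 without normalization between arrays.

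Ccnt1 and Ccnt2 encode cyclins T1 and T2, the partners of CDK9, and neither passed the test by its brightest probe in any of the 6 comparisons with the scanner labels. Ccnt1 (A_51_P356425, chr15:98371435-98371494, mm8, minus strand) stayed between 6.97 and 7.17 in the 8 EPM channels and between 7.57 and 7.84 in the 8 BMDM channels. Its largest macrophage change was 0.20 ± 0.07 in BMDM at 1 h (adjusted p = 0.053), which passed the test when the dye was a term of the fit (adjusted p = 0.028). The dimmer Ccnt1 probe (A_52_P406134), well above background in 22 of 24 channels, was higher by 0.27 in EPM at 1 h (adjusted p = 0.025).

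Ccnt2 has 3 probes that did not move alike. The brightest (A_52_P504460, chr1:129623026-129623085, mm8, plus strand) had the widest replicate spread of the 8 genes, with an SD of up to 0.45, and changed by 0.31 ± 0.17 in EPM at 12 h (adjusted p = 0.14, and 0.012 with the dye as a term) and by 0.23 ± 0.17 in BMDM at 12 h (adjusted p = 0.26). The probe A_51_P203444 was higher at 12 h, by 0.27 in EPM (adjusted p = 0.029) and by 0.44 in BMDM (adjusted p = 0.00079). Both 12 h values had the direction of the brightest probe. The probe A_52_P409961 was higher in EPM by 0.18 at 1 h and by 0.26 at 12 h, and in BMDM it was lower at 1 h (-0.34) and higher by 0.59 at 12 h (adjusted p = 6.7e-08). Its BMDM readings were 7.46 and 7.51 with DMSO and 7.15 and 7.13 with KLA at 1 h, against 7.04 and 7.12 with DMSO and 7.70 and 7.65 with KLA at 12 h, so that the control arrays also lay apart, with a difference of -0.40. The change of this probe differed between EPM and BMDM at 1 h, by 0.52 ± 0.08 (adjusted p = 0.00035).

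Hexim1, whose product holds P-TEFb inactive in the 7SK particle, was lower at 12 h of KLA in both macrophage types. The brightest probe (A_52_P85403, chr11:102934279-102934338, mm8, plus strand) read 11.44 and 11.30 in EPM with DMSO for 12 h and 10.94 and 10.90 with KLA. In BMDM at 12 h it read 13.40 and 13.22 with DMSO and 12.77 and 12.45 with KLA. KLA replicates lay below both controls in each cell type. The 12 h changes were -0.45 ± 0.11 in EPM (adjusted p = 0.0020) and -0.70 ± 0.11 in BMDM (adjusted p = 2.4e-05). The size moved with the scaling: it was -0.24 (adjusted p = 0.035) with the processed signals and -0.43 with the authors' values in BMDM, and -0.28 without normalization between arrays in EPM.

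The other Hexim1 probe (A_51_P348397, chr11:102935603-102935662) gave -0.52 in EPM (adjusted p = 3.5e-06) and -0.31 in BMDM (adjusted p = 0.00072) at 12 h. At 1 h the probes differed. In EPM the brightest probe read 11.17 and 11.37 untreated and 11.62 and 11.51 with KLA, a change of 0.29 ± 0.11 (adjusted p = 0.052, and 0.018 with the dye as a term), while the other probe changed by -0.06 (adjusted p = 0.58). In BMDM at 1 h the Cy5 spot of the brightest probe was an outlier on both arrays and was left out, which left 12.96 with DMSO and 12.62 with KLA in the Cy3 channel and a change of -0.35 ± 0.15 (adjusted p = 0.11). The other probe, with both replicates, was lower there, with a change of -0.25 ± 0.07 (adjusted p = 0.012). From 1 h to 12 h the change in EPM moved down by both probes, with differences of -0.74 ± 0.15 (adjusted p = 0.00076) and -0.46 ± 0.10 (adjusted p = 0.00084).

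Brd2, the BET family member of the group, rose in macrophages at both times. Its probe (A_51_P295652, chr17:33722491-33722550, mm8, minus strand) read 14.01 and 13.93 in untreated EPM and 14.71 and 14.74 after 1 h of KLA, and 13.84 and 13.66 with DMSO against 14.50 and 14.58 with KLA at 12 h. BMDM read 13.94 and 14.10 against 14.30 and 14.43 at 1 h, and 13.93 and 14.03 against 14.65 and 14.77 at 12 h. Treated macrophages lay above their controls in all 4 comparisons. The changes were 0.75, 0.79, 0.34 and 0.73, each with an SE of 0.07 (adjusted p = 2.9e-07, 4.2e-08, 0.0018 and 7.1e-08). In BMDM the sizes moved with the scaling, to 0.58 and 1.33 with the processed signals and to 0.56 and 1.15 with the authors' values at 1 h and 12 h, and to 0.52 at 1 h without normalization between arrays. The change at 1 h was larger in EPM than in BMDM by 0.41 ± 0.11 (adjusted p = 0.017), and at 12 h the difference was 0.05 with an interval of -0.17 to 0.28. In BMDM the change grew by 0.39 ± 0.11 from 1 h to 12 h (adjusted p = 0.0045), and in EPM by 0.04 ± 0.11 (adjusted p = 0.82).

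Supt5h, now named Supt5, encodes the DSIF subunit SPT5, a target of P-TEFb, and was called lower at 12 h and not at 1 h. Its brightest probe (A_51_P429983, chr7:28023761-28023820, mm8, minus strand) read 12.87 and 13.02 in EPM with DMSO for 12 h and 12.56 and 12.63 with KLA, and 13.35 and 13.33 against 12.75 and 12.94 in BMDM. The groups did not overlap. The changes were -0.35 ± 0.08 (adjusted p = 0.0016) and -0.49 ± 0.08 (adjusted p = 3.8e-05), against 0.01 and -0.03 at 1 h. The change between the times was itself called, with differences of -0.36 ± 0.12 in EPM (adjusted p = 0.020) and -0.46 ± 0.12 in BMDM (adjusted p = 0.0027). The EPM call at 12 h did not hold with the processed signals (-0.13, adjusted p = 0.13), with the authors' values (-0.17, adjusted p = 0.11) or without normalization between arrays (-0.09, adjusted p = 0.41), and the BMDM call did not hold with the processed signals (-0.09, adjusted p = 0.25). The dimmer probe (A_52_P15229) gave -0.21 in EPM (adjusted p = 0.11) and -0.30 in BMDM (adjusted p = 0.016) at 12 h, and its change between the times was not called (-0.04 in EPM, adjusted p = 0.86, and -0.33 in BMDM, adjusted p = 0.068).

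**Figure D2:**
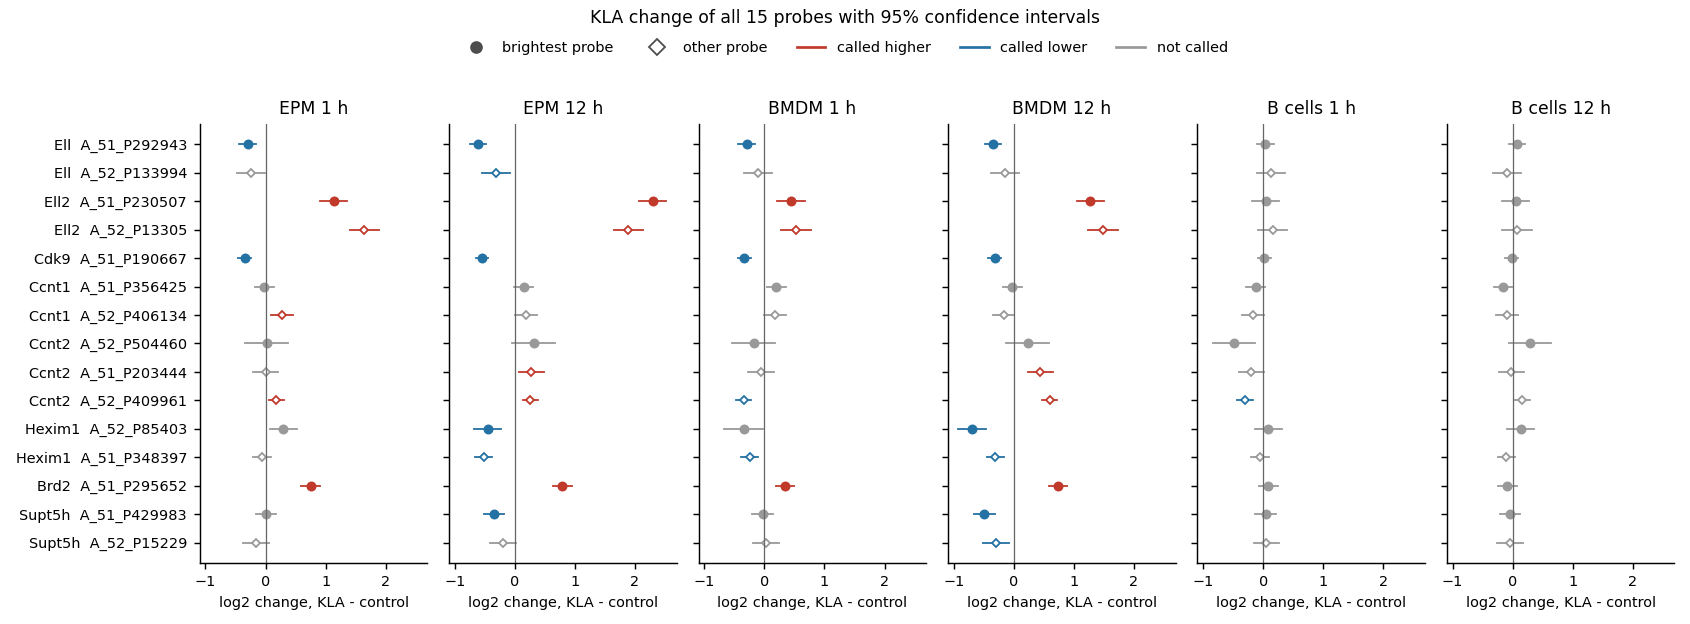
Log2 change, KLA minus control, of all 15 probes in the 6 comparisons, with 95% confidence intervals from the limma fit. Filled circles are the brightest probe of a gene and open diamonds its other probes; red is called higher, blue called lower and grey not called. Both Ell2 probes lie to the right of 0 in all 4 macrophage panels, from 0.44 to 2.29, and the B cell panels, drawn with the scanner labels, hold 1 called probe, of Ccnt2.

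Counted by brightest probe, 2 of the 8 genes were higher and 2 lower in EPM at 1 h, where 9.30% of all genes were called higher and 19.4% lower. In EPM at 12 h, 2 were higher and 4 lower (19.4% and 34.0% of all genes). In BMDM, 2 were higher and 2 lower at 1 h (10.8% and 17.4%), and 2 were higher and 4 lower at 12 h (28.5% and 36.2%). The higher genes were Ell2 and Brd2 each time. Ell and Cdk9 were lower each time, joined at 12 h by Hexim1 and Supt5h. With so many genes called in macrophages at 12 h, counts of this size lie near those of genes at large. The median change of the 8 genes lay between -0.17 and 0.01 over the 4 comparisons, beside a median of -0.06 to -0.02 over all genes.

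The split between higher and lower moved with the scaling. With the scanner's processed signals it was 2 and 1 in EPM at 1 h, 2 and 3 in EPM at 12 h, 3 and 1 in BMDM at 1 h and 2 and 2 in BMDM at 12 h. The shares of all genes called with these signals are not given here, so these counts cannot be set beside genes at large. That scaling gave a median change over all genes of -0.11 in EPM and 0.12 in BMDM at 12 h, and leaving out the normalization between arrays gave -0.14 in BMDM at 12 h. With the mean of each array as 1 sample, and the control arrays of a cell type as replicates of each other, each KLA condition had 1 sample. Ell2 then gave 1.27 and Brd2 0.86 in EPM at 1 h. Calls from such a fit are not given, so it does not bear out the calls at either time.

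The control arrays themselves lay apart for several of the genes. Between the 12 h control and the early control, Ell differed by -0.20 in EPM and by -0.20 in BMDM, and Cdk9 by -0.17 and -0.18. These were the 2 of 8 genes called in each macrophage type (18.7% of all genes in EPM and 22.7% in BMDM). Beside these stand KLA changes of Ell and Cdk9 at 1 h of -0.30 to -0.35. Ell2 differed between controls by -0.27 (adjusted p = 0.10) and -0.30 (adjusted p = 0.058), opposite in sign to its KLA change. Its 12 h KLA change was taken from these lower 12 h controls, which adds to that change and to its growth from 1 h. In EPM the mean was 12.00 with KLA for 12 h, against 9.71 with DMSO and 9.98 untreated. In BMDM it was 12.79, against 11.51 with DMSO for 12 h and 11.81 with DMSO for 1 h. The other Ell2 probe differed between controls by 0.017 in EPM and 0.0096 in BMDM. The brightest Hexim1 probe in BMDM had a mean of 13.31 with DMSO for 12 h, against 12.96 with DMSO for 1 h, in the Cy3 channel alone. Its 12 h KLA mean of 12.61 was thus set against the higher control. How much of any change came from the array was not tested.

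**Figure D3:**
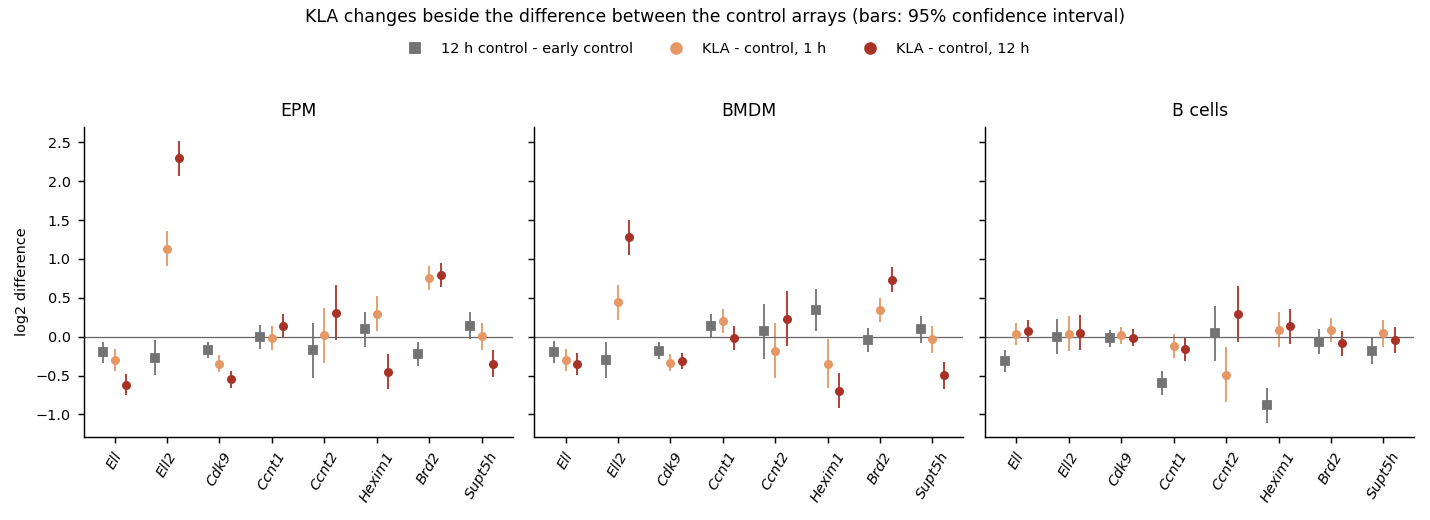
Log2 differences of the brightest probes in EPM, BMDM and B cells: the 12 h control minus the early control (grey squares) and KLA minus control at 1 h (orange) and 12 h (dark red), with 95% confidence intervals. The Ell2 and Brd2 changes in macrophages at 12 h (0.73 to 2.29) stand well clear of the differences between controls, while in B cells, with the scanner labels, the largest values are differences between controls (-0.88 for Hexim1 and -0.59 for Ccnt1).

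In B cells, with the scanner labels, none of the 8 genes was called by the brightest probe at 1 h (2.82% of all genes were called higher and 2.53% lower) or at 12 h (2.88% and 2.55%) in the limma fit. The 8 changes lay between -0.49 and 0.09 at 1 h and between -0.16 and 0.29 at 12 h, and at an unadjusted p under 0.05 there was 1 gene at each time. At 1 h this was Ccnt2, with 11.16 and 11.01 untreated and 10.60 and 10.60 with KLA, a change of -0.49 ± 0.17 (adjusted p = 0.11, and 0.0026 with the dye as a term). Its probe A_52_P409961 was also lower, with a change of -0.30 ± 0.06 (adjusted p = 0.0041), and its probe A_51_P203444 changed by -0.20 (adjusted p = 0.28). With the arrays exchanged, the 3 probes gave 0.043, -0.58 and 0.28 at 1 h, in the same order, and the last 2 were called. The change of Ccnt2 between 1 h and 12 h, 0.78 ± 0.24 (adjusted p = 0.049), was the only 1 of 8 called (8.04% of all genes), and this contrast is the same under either set of labels. At 12 h the gene was Ccnt1, at -0.16 ± 0.07 (adjusted p = 0.26).

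With the scanner labels, larger differences in B cells lay between the 12 h and the early conditions, where time in culture and array cannot be told apart. Hexim1 read 13.14 and 13.41 untreated and 13.38 and 13.34 with 1 h of KLA, against 12.43 and 12.36 with DMSO and 12.56 and 12.50 with KLA for 12 h. Both 12 h conditions thus lay below both early ones with these labels. With the arrays exchanged, the DMSO readings would be 13.38 and 13.34, within the range of the untreated ones. The control difference was -0.88 ± 0.11 (adjusted p = 3.4e-06), and -1.37 ± 0.07 by the other Hexim1 probe (adjusted p = 1.6e-11). Ccnt1 differed by -0.59 ± 0.07 (adjusted p = 2.3e-06) and Ell by -0.31 ± 0.07 (adjusted p = 0.00075), so that 3 of 8 genes were called, as were 47.1% of all genes.

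With the 2 arrays exchanged, these differences became KLA changes. At 1 h, 3 of 8 genes were then called, all lower (47.1% of all genes): Hexim1 at -0.88, Ccnt1 at -0.59 and Ell at -0.31. At 12 h, 6 of 8 were called (49.0% of all genes), with Hexim1 at -0.83, Ccnt1 at -0.63, Ell and Supt5h at -0.27 and Brd2 at -0.23, and with Ccnt2 higher, at 0.82. The other Ccnt2 probes gave -0.12 (A_52_P409961, not called) and 0.45 (A_51_P203444, called) at 12 h. Ell2 and Cdk9 were called under neither set of labels, with changes between -0.05 and 0.05.

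Macrophages responded unlike B cells in several of the genes. The mean change of EPM and BMDM less that of B cells was called for 4 of 8 genes at 1 h (21.8% of all genes) and for 7 of 8 at 12 h (55.4%). For Ell2 the difference was 0.75 ± 0.13 at 1 h (adjusted p = 0.00040) and 1.73 ± 0.13 at 12 h (adjusted p = 2.8e-09), and for Brd2 it was 0.47 ± 0.09 (adjusted p = 0.00098) and 0.85 ± 0.09 (adjusted p = 2.8e-07). For Cdk9 it was -0.36 ± 0.06 (adjusted p = 0.00035) and -0.42 ± 0.06 (adjusted p = 1.6e-05). Ell2, Brd2 and Cdk9 were also called with the B cell arrays exchanged, with 0.79 and 1.77, 0.61 and 1.00, and -0.32 and -0.38. In all, 5 of 8 were then called at 1 h (49.6% of all genes) and 6 of 8 at 12 h (65.6%). Several other calls turned on the labels. Lost with the exchange were Ell at 1 h (-0.33, and 0.012 exchanged), Hexim1 at 12 h (-0.71 and 0.26) and Supt5h at 12 h (-0.38 and -0.16). Gained were Hexim1 at 1 h (-0.11 and 0.85), Ccnt1 at 1 h (0.21 and 0.68) and Ccnt2 at 12 h (-0.022 and -0.55).

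Between the macrophage types, the change differed for 3 of 8 genes at 1 h (9.67% of all genes), all of them higher in EPM: Ell2, Brd2 and Hexim1 (0.64 ± 0.18, adjusted p = 0.038, with 1 replicate per BMDM condition). The other Hexim1 probe gave 0.19 ± 0.10 (adjusted p = 0.29). At 12 h it differed for 3 of 8 (47.0% of all genes), Ell2, Ell and Cdk9 (-0.23 ± 0.07, adjusted p = 0.013). From 1 h to 12 h the change moved for 5 of 8 genes in EPM (43.1% of all genes), up for Ell2 and down for Ell, Cdk9 (-0.20 ± 0.07, adjusted p = 0.032), Hexim1 and Supt5h. In BMDM it moved for 3 of 8 (53.9%), up for Ell2 and Brd2 and down for Supt5h.

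Levels over all channels, treated ones included, also set the cell types apart. By the brightest probe, for 4 of the 8 genes, Cdk9, Ccnt2, Brd2 and Supt5h, all 8 B cell channels lay above all 16 macrophage channels, which held for 21.3% of all genes; no member lay wholly below (18.3%). The other probe of Supt5h overlapped, with 12.16 to 12.82 in B cells and up to 12.40 in BMDM, as did the Ccnt2 probe A_52_P409961, with 7.41 to 8.05 in B cells and up to 7.70 in BMDM. Cdk9 had a median of 14.64 in B cells and 13.20 in macrophages, and Brd2 had 15.32 and 14.20. By the brightest probe, Hexim1 and Ccnt1 lay wholly lower in EPM than in BMDM, with ranges of 10.90 to 11.62 against 12.45 to 13.40 and of 6.97 to 7.17 against 7.57 to 7.84; 8.01% of all genes did so, and no member lay wholly higher in EPM (9.70%). The other Hexim1 probe did so too (7.44 to 8.15 against 9.23 to 9.64), while the other Ccnt1 probe overlapped (6.13 to 6.72 against 6.19 to 6.55). For Ell2 by its brightest probe, the order of the 12 conditions began with BMDM with KLA for 12 h (12.79) and for 1 h (12.26). EPM with KLA for 12 h (12.00), the BMDM controls (11.81 and 11.51) and EPM with KLA for 1 h (11.11) came next. Untreated EPM (9.98) and EPM with DMSO (9.71) followed, and the B cell conditions (9.58 to 9.63) closed the order. The replicates of neighbouring conditions did not overlap from BMDM with KLA down to untreated EPM, and from EPM with DMSO downwards neighbours did overlap. The other Ell2 probe gave another order, with EPM with KLA for 12 h (9.01) and for 1 h (8.75) above BMDM with KLA for 1 h (8.63).

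A list of 49 other genes of the elongation machinery gives the setting, of which 47 were found on the array and tested. In EPM, 3 were higher and 10 lower at 1 h and 8 were higher and 14 lower at 12 h; in BMDM, 5 were higher and 5 lower at 1 h and 14 were higher and 19 lower at 12 h. B cells had 1 higher and 1 lower at 1 h and 1 higher at 12 h, and with the 2 arrays exchanged 6 higher and 16 lower at 1 h and 5 higher and 20 lower at 12 h. The shares of all genes given above are the ones to set beside these counts. The split again moved with the scaling: with the processed signals it was 3 and 5, 9 and 11, 3 and 4, and 18 and 15 in the same order of macrophage comparisons, and without normalization between arrays it was 3 and 10, 11 and 9, 4 and 7, and 9 and 26.

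The genes of NELF, which pauses the polymerase together with DSIF, were lower at 12 h in macrophages. All 3 tested subunit genes fell in both macrophage types, where 34.0% and 36.2% of all genes did, with changes in EPM and BMDM of -0.97 and -0.44 for Rdbp (now Nelfe), -0.38 and -0.75 for Th1l (Nelfcd) and -0.39 and -0.36 for Whsc2 (Nelfa). All of these values kept their sign under the 5 other scalings tried, although Whsc2 did not pass the test under each. Supt4h1, which encodes the small subunit of DSIF, was lower in all 4 macrophage comparisons, with changes of -0.19 to -0.55, but the value for BMDM at 12 h turned to 0.08 with the processed signals. Of the 7SK particle, Bcdin3 (now Mepce), which encodes the enzyme that caps 7SK, was lower in EPM at 1 h (-0.75), and Larp7, which encodes its binding protein, was lower at 12 h (-0.30 in EPM and -0.88 in BMDM).

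Among the scaffold and partner genes of the super elongation complex, Aff1 was higher by 0.27 and 0.35 in EPM at 1 h and 12 h and by 0.65 in BMDM at 12 h. Mllt3 was higher at 12 h, by 0.79 in EPM and 0.54 in BMDM, and Eaf1, which encodes a partner of ELL proteins, was higher by 0.68 in EPM at 12 h, with -0.13 in BMDM (adjusted p = 0.13). Aff4 was higher by 0.49 in BMDM at 1 h and lower in EPM at 12 h (-0.33). The third ELL gene, Ell3, was higher by 0.20 in BMDM at 12 h, at levels near background. It read 6.03 and 6.06 with DMSO, where neither channel was well above background, and 6.21 and 6.29 with KLA, where both were. In B cells at 1 h Ell3 was lower (-0.36), where the authors' values gave 0.70 and the exchanged labels 0.81. Eaf2, the paralogue of Eaf1, was higher by 0.34 in B cells at 12 h with the scanner labels (-0.020 exchanged) and lower in macrophages at 12 h (-0.29 in EPM and -0.61 in BMDM). At 1 h its BMDM mean was higher with KLA, at 8.46 against 8.18 with DMSO, and its EPM mean was 8.02 against 8.19 untreated.

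Brd3, another BET gene, did not follow Brd2. It was lower in all 4 macrophage comparisons, with changes at 1 h and 12 h of -0.57 and -0.42 in EPM and of -0.58 and -0.97 in BMDM. Crkrs (now Cdk12), which encodes another kinase of the polymerase, was higher at 1 h, by 0.65 in EPM and 0.42 in BMDM. At 12 h its means with KLA and with DMSO were 8.14 and 7.73 in BMDM, and 8.00 and 8.03 in EPM. Its partner cyclin gene Ccnk was higher by 0.25 in B cells at 1 h with the scanner labels (0.073 exchanged, not called). The Ccnk means at 12 h with KLA and with DMSO were 6.87 and 6.56 in BMDM, and 6.54 and 6.61 in EPM. At 12 h in BMDM the 2 largest rises of the list were those of Tceb3 (elongin A, 1.04) and Tcea1 (TFIIS, 0.86), and the 2 largest falls those of Ttf2 (a termination factor, -1.35) and Ssrp1 (a histone chaperone of the FACT complex, -1.04). Iws1 was higher by 0.33 in EPM at 1 h and Htatsf1 lower at 12 h, with changes of -0.63 in EPM and -0.75 in BMDM.

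**Figure D4:**
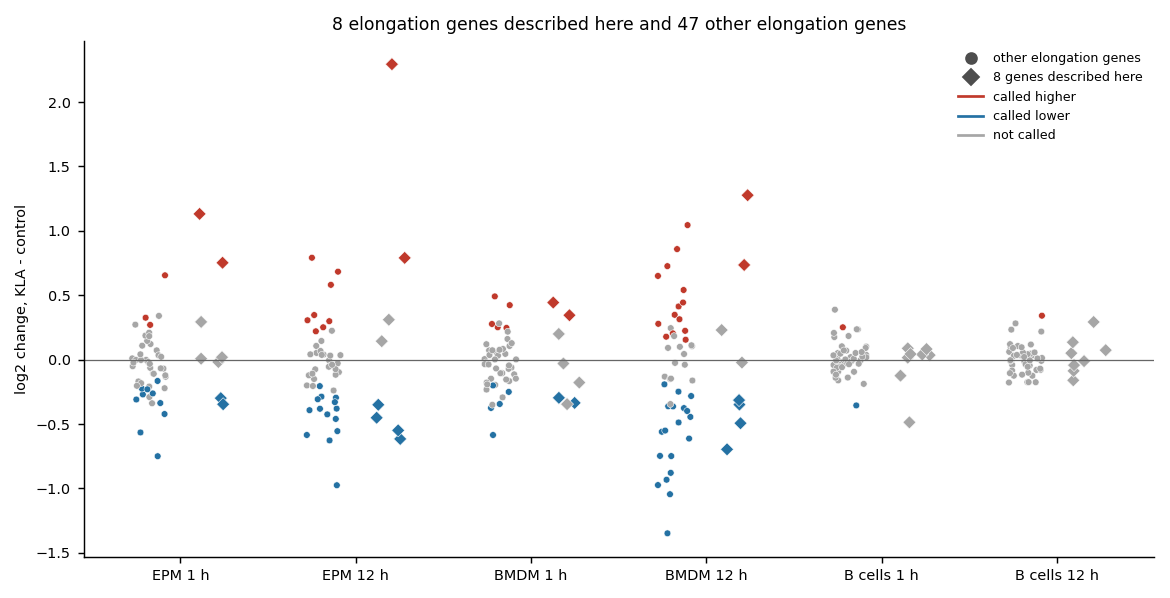
Log2 change, KLA minus control, of the 47 other elongation genes (circles) and the 8 genes described here (diamonds) in the 6 comparisons, with horizontal scatter for legibility only. Red is called higher, blue called lower and grey not called. Ell2 at 12 h in EPM (2.29) lies above all other points, and the points of B cells, drawn with the scanner labels, lie between -0.49 (Ccnt2) and 0.39 (Htatsf1).

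Over the 12 condition means, the genes whose brightest probe ran most like that of Ell2 were Gpr84 (Pearson's r = 0.987), Olfr1176 (0.983) and Rassf4 (0.979). For Brd2 they were 1700028J19Rik (0.972), Zc3h7a (0.969) and A530040E14Rik (0.962), for Cdk9 Zyg11b, Slc37a4 and BC029214 (0.993 to 0.994) and for Hexim1 Fnbp1, Cnot1 and Stk11 (0.955 to 0.981). For Ell they included Mknk2 (0.973) and Bag5 (0.968), and they were for Supt5h Itpr3, Klhl6 and Rplp0 (0.989 to 0.990), for Ccnt1 AI428936, Bglap1 and Pabpc2 (0.970 to 0.990) and for Ccnt2 E430022E14Rik, Phf1 and 5830400J07Rik (0.986 to 0.989). Among the 8 genes, Ell ran with Cdk9 (r = 0.885) and against Ell2 (r = -0.864). The points share their arrays, and differences between cell types weigh heavily in them, so these values describe the 12 conditions and no more.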

How the data were processed

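Per the labels and file headers, the authors hybridised 2 biological replicates of 1 condition to each array, scanned it and deposited the spot intensities of Agilent Feature Extraction 9.5.3.1 for both channels. They also deposited a table of normalized intensities for the 24 channels, whose normalization method is not given in the sources used here. This table was used on the log2 scale as an alternative and to check labels. No depth exists for arrays; the number of arrays limits the precision.

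The deposited mean intensities were background-corrected (normexp, offset 50), stripped of control spots, normalized within arrays (loess) and between arrays (Aquantile), and split into channels on the log2 scale with limma 3.58.1 in R 4.3.3. Spots marked as outliers were left out and spots of a probe averaged. A probe was tested if the scanner marked it as well above background for both replicates of some condition and it had a value in every condition, which 30684 of 41174 probes met; 41 were left out for a condition with no value. A linear model with a mean per condition and 12 residual degrees of freedom gave moderated tests, with Benjamini-Hochberg adjustment over all tested probes and a threshold of 0.05. In the text, ± is the SE and an adjusted p is from this fit. These p-values measure the spread between the 2 channels of an array. Replicate numbers coincide with the dye: deviations of same-dye channels correlated in all 66 pairs of arrays (r of 0.230 to 0.586), so the dye pairs the channels, and the fit with dye as a replicate block is given where it changed a call. Among 30570 simulated probes for EPM at 1 h, 99 of 100 changed by 1 on the log2 scale and 100 of 100 changed by 2 were called. Of the unchanged rest, 3 were called. The simulated noise was independent between channels, with no array effect and no shared dye effect. These counts therefore do not show how often a difference between arrays would be called.

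Genes were named by symbol: the 8 genes at every probe, the 2 largest calls in each direction per comparison among the other elongation genes, and the 3 genes most like each of the 8, of which some are not reported here. Others of the elongation list (Aff1, Eaf2, Ell3, Larp7, Supt4h1, Th1l) were chosen after their values were seen. The genes and lists were chosen with earlier results of these data known. Promoters were matched by symbol in RefSeq for all 8 genes, Supt5h as Supt5. Probe positions could not be set against exons, as an mm8 annotation was not used here. Alternatives covered background, normalization, filter, replicates, probe choice, threshold and labels.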

Additional observations from a re-analysis of the deposited data

Results flagged for a closer look

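Among brightest probes, 3 differences between KLA changes exceeded 1 on the log2 scale, all of them of Ell2. The other Ell2 probe exceeded 1 for EPM against BMDM at 1 h (1.12) and for macrophages against B cells at 12 h (1.61). The 12 h change was larger in EPM than in BMDM by 1.02 (SE 0.15, adjusted p = 2.8e-05), where the other probe gave 0.41 (adjusted p = 0.055). It was larger in macrophages than in B cells by 1.73 (SE 0.13, adjusted p = 2.8e-09), and by 1.77 with the 2 B cell arrays exchanged. In EPM it was larger at 12 h than at 1 h by 1.16 (SE 0.15, adjusted p = 5.8e-06), where the other probe gave 0.25 (adjusted p = 0.27). With 2 replicates per condition, no single sample could be tested for standing apart.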

How the results depend on the processing

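Of 48 changes of the 8 genes, all kept direction and side of the threshold with a normexp offset of 16, quantile normalization, no detection filter and a threshold of 0.01. With the scanner's processed signals 42 did so, 4 were lost, 1 was gained and Cdk9 in BMDM at 12 h turned to 0.064. Taking array means as samples left 1 sample per KLA condition, so that its counts of calls are not given. The B cell count at 1 h was 1 without normalization between arrays and 1 with the mean of a gene's probes. The mean of probes lost Ell in BMDM at 1 h and gained 4 calls (Ccnt2 in EPM and BMDM at 12 h and in B cells at 1 h, and Hexim1 in BMDM at 1 h). Centring gained 3 (Hexim1 in EPM at 1 h, Ccnt1 in EPM at 12 h and in BMDM at 1 h) and fitting each cell type alone gained 2 (Hexim1 in EPM and Ccnt1 in BMDM at 1 h). The B cell count at 1 h was 3 with the authors' values and 3 with the labels exchanged, and at 12 h the B cell count was 6 under each. Under the authors' values the reversed B cell changes were -0.29 and -0.27 for Ell and -0.81 and -0.79 for Hexim1 at 1 h and 12 h. With labels exchanged they were -0.31 and -0.27 for Ell and -0.88 and -0.83 for Hexim1.

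With the dye as a replicate block, 1 gene was called in B cells at 1 h, Ccnt2, and the paired fit also added Hexim1 in EPM at 1 h, Ccnt2 in EPM at 12 h and Ccnt1 in BMDM at 1 h, and changed no other call. Leaving out 1 replicate at a time, 185 of 190 values kept their call. The count in B cells at 12 h ranged from 0 to 1, with Ccnt2 called without replicate 2 of KLA (0.61, adjusted p = 0.031) and Ccnt1 without replicate 1 of DMSO (-0.30, adjusted p = 0.017). The count in BMDM at 1 h ranged from 3 to 4. Hexim1 in EPM at 1 h was called (0.39, adjusted p = 0.038) without replicate 2 of the untreated cells. The spot signal was 1.77 to 3.06 times the background at the median, which limits dim probes such as those of Ccnt1.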
